A study of Mus musculus with 4 samples.

Results

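The fibroblast growth factor (FGF) genes described here are 7 ligands (Fgf1, Fgf2, Fgf5, Fgf7, Fgf18, Fgf20 and Fgf22) and 3 receptors (Fgfr1, Fgfr2 and Fgfr3) known from the hair follicle and its surrounding skin. They were selected by gene symbol in the annotation of the array, which gave 20 probe sets, 12 for ligands and 8 for receptors, of 45037 probe sets tested, and 10 of 18193 genes. A probe set is a group of short probes that together report a transcript. RNA came from cells of mouse tail epidermis that the labels call basal interfollicular cells, and was read on Affymetrix 3' arrays, 2 for each of 2 genotypes. In the Sox9cKO group (K14CreER:SmoM2:Sox9cKO) the cells expressed SmoM2 and Sox9 was conditionally deleted. In the SmoM2 group (K14CreER:SmoM2) the cells expressed SmoM2 and Sox9 was intact. SmoM2 is a constitutively active Smoothened, the transducer of the Hedgehog signal, and K14CreER is a Cre recombinase that becomes active with tamoxifen in keratin 14-expressing cells, so both groups carried the oncogene, the Cre and the drug. Mice of both groups received tamoxifen daily over 10 days, and tissue was taken 9 weeks from the first dose. Cells were sorted for the basal marker integrin alpha 6 and against CD34, a marker of bulge stem cells. The labels name the arrays of a group as replicates and do not say how many animals each came from, so the p-values reflect only the spread seen among these samples.

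FGF ligands are secreted proteins that bind receptor tyrosine kinases together with heparan sulfate chains on the cell surface, and the activated receptor passes the signal to the MAP kinase pathway. In skin the ligands and receptors are often made by different layers. Fgf7 is made by mesenchymal cells and read by the epithelial splice form of Fgfr2 on keratinocytes, whereas Fgf5 is made in the outer root sheath of growing follicles and ends the growth phase of the hair cycle, so that mice without it have long hair.

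The deposited values are log2 signals, in which a difference of 1 is a doubling. Their medians lay between 5.45 and 5.48 on the 4 arrays. Pearson's r across probe sets, which are not independent replicates, was 0.991 within each genotype and 0.978 to 0.980 between genotypes. At 1 of 3 Sox9 probe sets (1451538_at) the signal was 6.75 and 5.70 in the Sox9cKO arrays, against 10.21 and 10.02 in the SmoM2 arrays, a log2 difference of -3.89 (SE 0.31, adjusted p = 0.00171 over all probe sets). The other Sox9 probe sets differed by -0.75 and -0.41 and did not pass (adjusted p = 0.148 and 0.309), and where each lies relative to the deleted part is not known here, so a probe set outside it would check nothing. Of the 3, 1424950_at (-0.75) had the highest mean, the rule by which genes are read below. Read there, Sox9 did not pass limma's test over all genes (adjusted p = 0.108). Basal keratins were bright on every array, with Krt5 at 13.20 and 13.40 in Sox9cKO and 13.20 and 13.41 in SmoM2. Krt14 was lower in Sox9cKO, at 13.15 and 13.30 against 13.51 and 13.76. So was Itga6, the gene of the integrin sorted for, at 11.14 and 11.15 against 11.42 and 11.77. Neither passed by limma (adjusted p = 0.209 and 0.192 over all genes). Cd34, the marker sorted against, was dim at 3.95 and 3.75 in Sox9cKO and 4.14 and 4.15 in SmoM2. Y-linked genes were bright in Sox9cKO replicate 1 and SmoM2 replicate 2 and dim on the other arrays, which shows that neither genotype's arrays hold the same RNA run again. The controls spiked in for labelling averaged 8.55 and 7.19 in the Sox9cKO arrays and 8.37 and 7.76 in the SmoM2 arrays, lower in replicate 2 of each genotype.

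Of the 10 FGF genes, Fgf5 and Fgfr2 rose in Sox9cKO cells, Fgf1 fell, and the other 7 did not pass the test. The test was limma's moderated test with an adjusted p under 0.05 over all genes, with the brightest probe set standing for each gene. By the same test 2.66% of all genes rose and 3.53% fell. The 10 genes were chosen with earlier results known, so their count was not tested against these shares. Probe by probe, 4 of the 20 probe sets were higher (3 of Fgfr2 and 1 of Fgf5) and 1 was lower (Fgf1), against 1.48% and 2.34% of all probe sets. Arrays of the genotypes did not overlap for 4 of the 10 genes on the higher side and 3 on the lower side, against 26.0% and 21.8% of all genes. The median log2 difference of the 10 genes was 0.05, against 0.02 for all genes. With 2 arrays against 2, the smallest p an exact permutation test of any 1 gene allows is 0.333, so each call rests on limma's pooling of variance over genes.

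**Figure D1:**
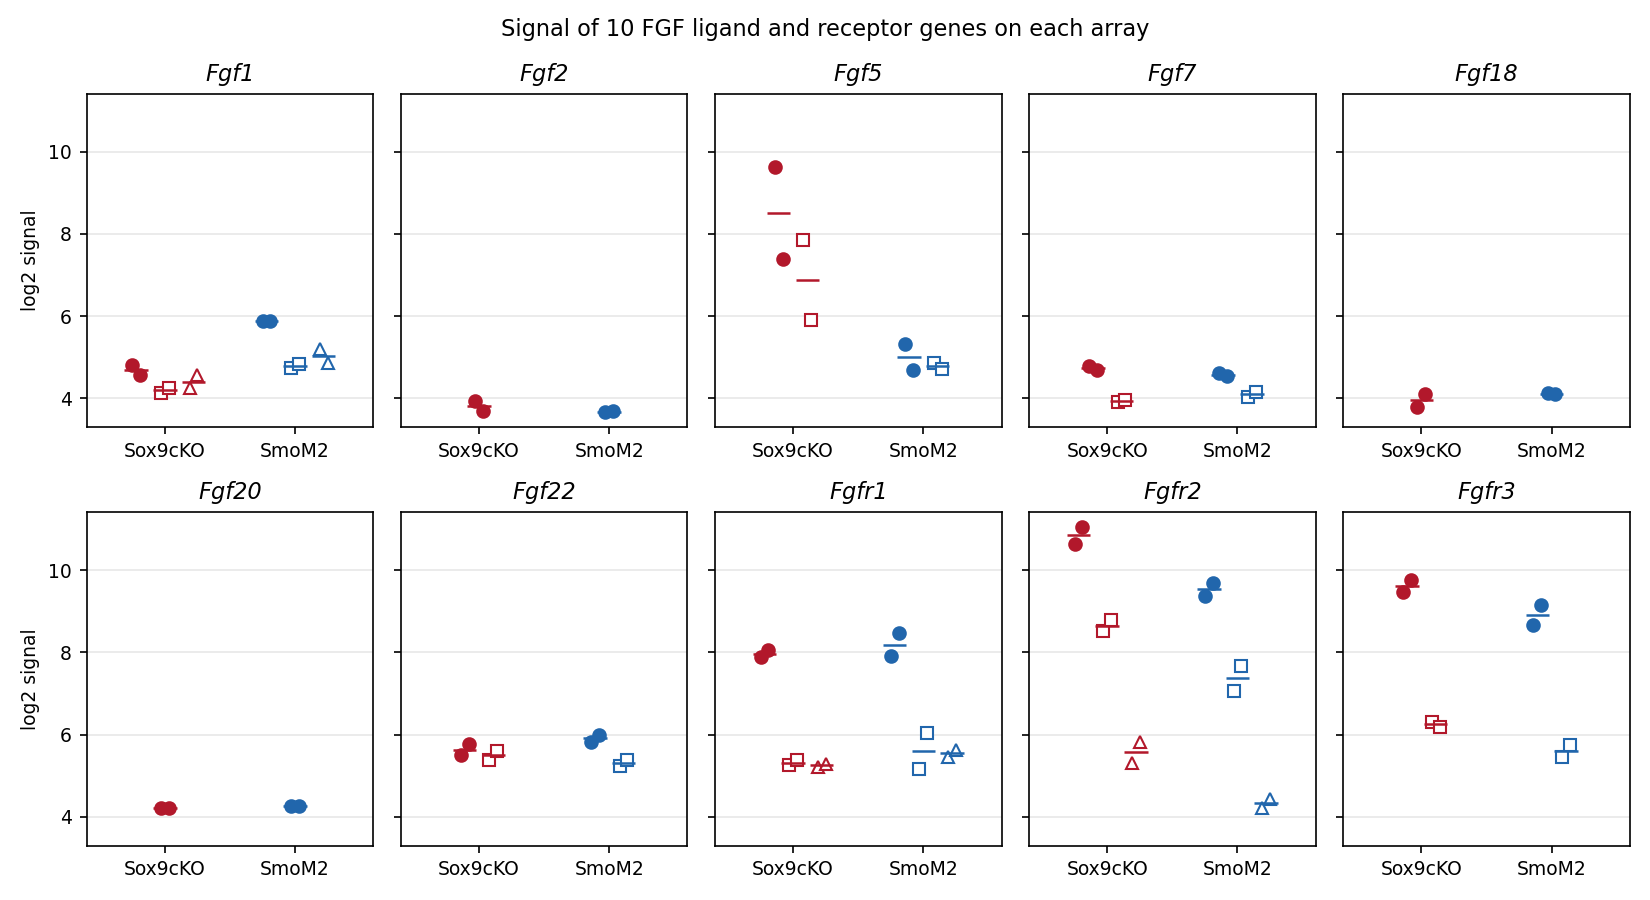
Log2 signal (vertical axis) of each probe set of the 10 genes on the 2 Sox9cKO arrays (red) and the 2 SmoM2 arrays (blue). Filled circles are the probe set that stands for the gene, open squares and triangles its other probe sets, short bars the means. Fgf5 and Fgfr2 lie higher and Fgf1 lower in Sox9cKO at every probe set, and the 2 Sox9cKO arrays are far apart for Fgf5.

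Fgf5, the ligand that ends hair growth, showed the largest difference of the 10 genes. Its brighter probe set (1438883_at) read 9.63 and 7.40 in the Sox9cKO arrays, against 5.32 and 4.68 in the SmoM2 arrays. Both Sox9cKO arrays lay above both SmoM2 arrays, but they stood much further apart than the SmoM2 arrays. The means were 8.52 ± 1.58 in Sox9cKO and 5.00 ± 0.45 in SmoM2 (SD, n = 2 each). The log2 difference was 3.52 (SE 0.63, 95% interval 2.04 to 4.99), an 11.4-fold difference with adjusted p = 0.0198 by limma. The second probe set (1426186_a_at) read 7.85 and 5.90 in Sox9cKO, against 4.87 and 4.72 in SmoM2, again with Sox9cKO replicate 1 the highest. Its log2 difference of 2.08 (SE 0.54) missed the threshold over all probe sets (adjusted p = 0.103).

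The size of the Fgf5 difference depended on single arrays. It was 2.40 without Sox9cKO replicate 1 and 4.63 without Sox9cKO replicate 2. Fgf5 lost its call without SmoM2 replicate 1 (adjusted p = 0.0901), without SmoM2 replicate 2 (adjusted p = 0.147), with an intensity trend and a robust variance prior (adjusted p = 0.229) and with the mean of its probe sets (log2 difference 2.80, adjusted p = 0.0545). Fgf5 was higher on replicate 1 than on replicate 2 in each genotype, as were the labelling controls, and their part in the result was not tested.

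Markers of differentiated follicle layers moved with Fgf5. Of 7 markers of the inner root sheath, the companion layer and the hair cortex, 6 rose and none fell. Over all genes 2.66% rose and 3.53% fell. Of the 7, 4 (Krt25, Krt27, Krt28 and Krt71) had a mean signal below the median of all genes. Summed over the 7 genes on the linear scale, their signal was 7070.0 and 3827.5 in the Sox9cKO arrays, against 1021.6 and 901.9 in the SmoM2 arrays, and like Fgf5 it was highest in Sox9cKO replicate 1. Krt75, a keratin of the companion layer, read 12.18 and 10.67 in Sox9cKO, against 6.61 and 5.80 in SmoM2. Krt75 made up most of the summed signal in Sox9cKO replicate 1. Gata3 alone of the 7 read lower in Sox9cKO replicate 1 (10.43) than in Sox9cKO replicate 2 (10.57). Krt28, an inner root sheath keratin, read 8.20 and 6.77 in Sox9cKO, against 5.02 and 4.49 in SmoM2. Fgf5 and Krt28 thus had the same order of the 4 arrays, as did Krt25, Krt71 and Krt75. In sorted bulk cells, more cells of a type and more RNA per cell cannot be told apart. The part of these layers in the Fgf5 signal was not tested. By the root mean square distance between mean-centred log2 profiles over the 4 arrays, the genes most like Fgf5 among all genes were Krt28 (0.49), Dusp2 (0.54) and Jakmip2 (0.56).

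**Figure D2:**
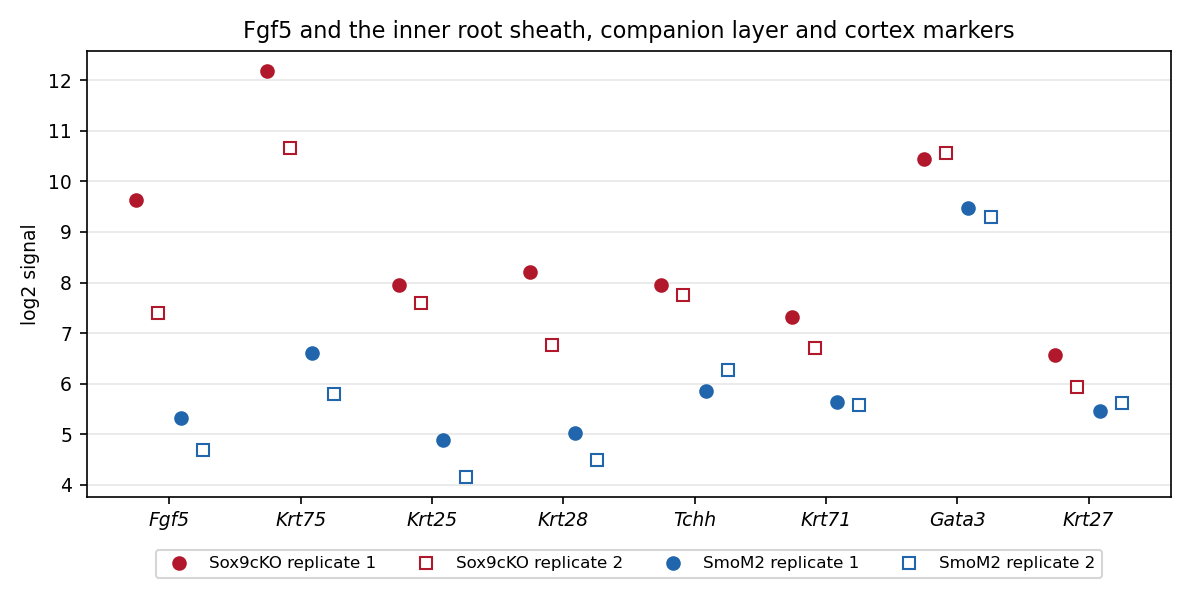
Log2 signal (vertical axis) of Fgf5 at its brighter probe set and of the 7 inner root sheath, companion layer and cortex markers, on the Sox9cKO arrays (red) and the SmoM2 arrays (blue), replicate 1 as filled circles and replicate 2 as open squares. All 8 genes lie higher on both Sox9cKO arrays, and the gap between the Sox9cKO replicates is widest for Fgf5.

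Fgfr2 encodes the receptor that keratinocytes use, in its epithelial splice form, for Fgf7 and Fgf22, and it rose at all 3 of its probe sets. The brightest probe set (1433489_s_at) read 10.64 and 11.05 in the Sox9cKO arrays, against 9.37 and 9.70 in the SmoM2 arrays. The lowest Sox9cKO array lay above the highest SmoM2 array by more than either genotype's own spread. The means were 10.84 ± 0.29 in Sox9cKO and 9.53 ± 0.24 in SmoM2 (SD, n = 2 each). The log2 difference was 1.31 (SE 0.19, 95% interval 0.86 to 1.76), a 2.48-fold difference with adjusted p = 0.00819 by limma. A second probe set (1420847_a_at) read 8.53 and 8.78 in Sox9cKO, against 7.07 and 7.67 in SmoM2 (log2 difference 1.29, adjusted p = 0.0251 over all probe sets). The third (1443211_at) read 5.32 and 5.82 in Sox9cKO, against 4.21 and 4.45 in SmoM2 (log2 difference 1.24, adjusted p = 0.0201).

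The 3 probe sets of Fgfr2 thus gave nearly the same difference, from 1.24 to 1.31, over a wide range of signal. The call on the gene was lost without SmoM2 replicate 1 (log2 difference 1.14, adjusted p = 0.0656) and remained without each of the other arrays. The other probe sets, tested over all probe sets, lost their calls more often. Probe set 1420847_a_at lost its call without Sox9cKO replicate 1, Sox9cKO replicate 2 or SmoM2 replicate 1 (adjusted p = 0.0609, 0.111 and 0.0708). Probe set 1443211_at lost its call without Sox9cKO replicate 2, SmoM2 replicate 1 or SmoM2 replicate 2 (adjusted p = 0.0682, 0.0969 and 0.0559). Which splice forms the probe sets report is not known here, so the epithelial and mesenchymal forms of the receptor are not told apart. The genes of most similar profile were Armh4 (distance 0.04), Tsc22d1 (0.06) and Lgals12 (0.07).

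The start regions of the genes that rose are shown so that they can be set beside the factors the mice were altered for, since Sox9 was deleted and SmoM2 acts through Gli factors. Each window holds 250 bases before and 50 after the annotated start, from RefSeq on GRCm38.p6, 5' to 3' on the strand of the gene. Capitals mark a match to the Sox core letters ACAAAG or ACAATG or to the Gli letters GACCACCCA, searched on both strands.
Fgf5 (chr5:98253934-98254233, plus strand): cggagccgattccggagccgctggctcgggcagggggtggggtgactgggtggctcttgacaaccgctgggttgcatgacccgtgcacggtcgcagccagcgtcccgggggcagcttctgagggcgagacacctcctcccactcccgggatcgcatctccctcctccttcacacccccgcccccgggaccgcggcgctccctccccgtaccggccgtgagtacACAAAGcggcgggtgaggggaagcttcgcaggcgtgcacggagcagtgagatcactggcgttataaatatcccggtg
Fgfr2 (chr7:130266759-130267058, minus strand): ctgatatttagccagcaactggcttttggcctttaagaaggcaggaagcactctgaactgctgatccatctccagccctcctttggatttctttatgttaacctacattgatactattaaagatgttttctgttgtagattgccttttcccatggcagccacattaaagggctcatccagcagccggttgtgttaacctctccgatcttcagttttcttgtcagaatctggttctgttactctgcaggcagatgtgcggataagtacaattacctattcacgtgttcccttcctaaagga
The Fgf5 window held 1 match, ACAAAG, which begins 27 bases before the start, and the Fgfr2 window held no match to any of the 3. ACAAAG stood in 18.7% of all 32851 such windows, ACAATG in 12.6%, 1 or both of them in 28.6%, and GACCACCCA in 0.253%. The windows differed in base composition, with 68.3% G and C for Fgf5 and 43.7% for Fgfr2. A match of these letters is a description and does not show a bound site. Of the 10 genes, 7 had a window in the table. Fgf1, Fgf20 and Fgfr1 did not. Of the other windows, that of Fgf7, which did not pass, held ACAAAG on the opposite strand.

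Fgf1 encodes acidic FGF, a ligand that binds all FGF receptors and lacks a classical secretion signal. It fell at the probe set that stands for it (1423136_at), which read 4.81 and 4.57 in the Sox9cKO arrays, against 5.87 and 5.88 in the SmoM2 arrays. The genotypes did not overlap, and the SmoM2 arrays were almost equal. The means were 4.69 ± 0.17 in Sox9cKO and 5.88 ± 0.01 in SmoM2 (SD, n = 2 each). The log2 difference was -1.19 (SE 0.14, 95% interval -1.53 to -0.85), a 2.28-fold difference with adjusted p = 0.00398 by limma. The call held with each array left out, where the adjusted p ran up to 0.0379.

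The other probe sets of Fgf1 showed a smaller difference in the same direction. Probe set 1441042_at read 4.14 and 4.24 in Sox9cKO, against 4.74 and 4.82 in SmoM2 (log2 difference -0.59, adjusted p = 0.0763). Probe set 1450869_at read 4.25 and 4.57 in Sox9cKO, against 5.21 and 4.86 in SmoM2 (log2 difference -0.63, adjusted p = 0.149). At neither did the genotypes overlap, and neither passed. Both lay below the array median on every array, and the Sox9cKO values of the brightest did too, and a fold measured near background may be understated. The mean of the 3 probe sets gave a log2 difference of -0.80 (adjusted p = 0.0131). Itga1, Mcam and Stard13 had the profiles most like that of Fgf1, each at a distance of 0.04.

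Fgfr3 encodes a receptor whose activating mutations occur in benign thickenings of human epidermis. Its brighter probe set (1421841_at) read 9.48 and 9.75 in the Sox9cKO arrays, against 8.67 and 9.14 in the SmoM2 arrays. The genotypes did not overlap, but the gap between them was smaller than the gap between the SmoM2 arrays. The means were 9.62 ± 0.20 in Sox9cKO and 8.91 ± 0.33 in SmoM2 (SD, n = 2 each), a log2 difference of 0.71 (SE 0.19, 95% interval 0.25 to 1.16) that did not pass (adjusted p = 0.0910). The other probe set (1425796_a_at) read 6.31 and 6.19 in Sox9cKO, against 5.46 and 5.74 in SmoM2, a log2 difference of 0.65 (adjusted p = 0.0859). Both probe sets thus had Sox9cKO values above all SmoM2 values and 95% intervals above 0, without passing the threshold.

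Fgfr1, a receptor found mainly in mesenchymal cells, gave no call at any of its 3 probe sets. The brightest (1424050_s_at) read 7.90 and 8.05 in the Sox9cKO arrays, against 7.91 and 8.47 in the SmoM2 arrays, and the genotypes overlapped. Its log2 difference was -0.22, with a 95% interval of -0.69 to 0.26 (adjusted p = 0.678). Fgfr1 differed by 0.07 without SmoM2 replicate 2, so its direction rested on that array. The other probe sets (1425911_a_at and 1436551_at) differed by -0.29 each (adjusted p = 0.741 and 0.421 over all probe sets). The 3 receptors thus did not share a call, since Fgfr2 alone passed. Whether their differences are unequal was not tested.

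**Figure D3:**
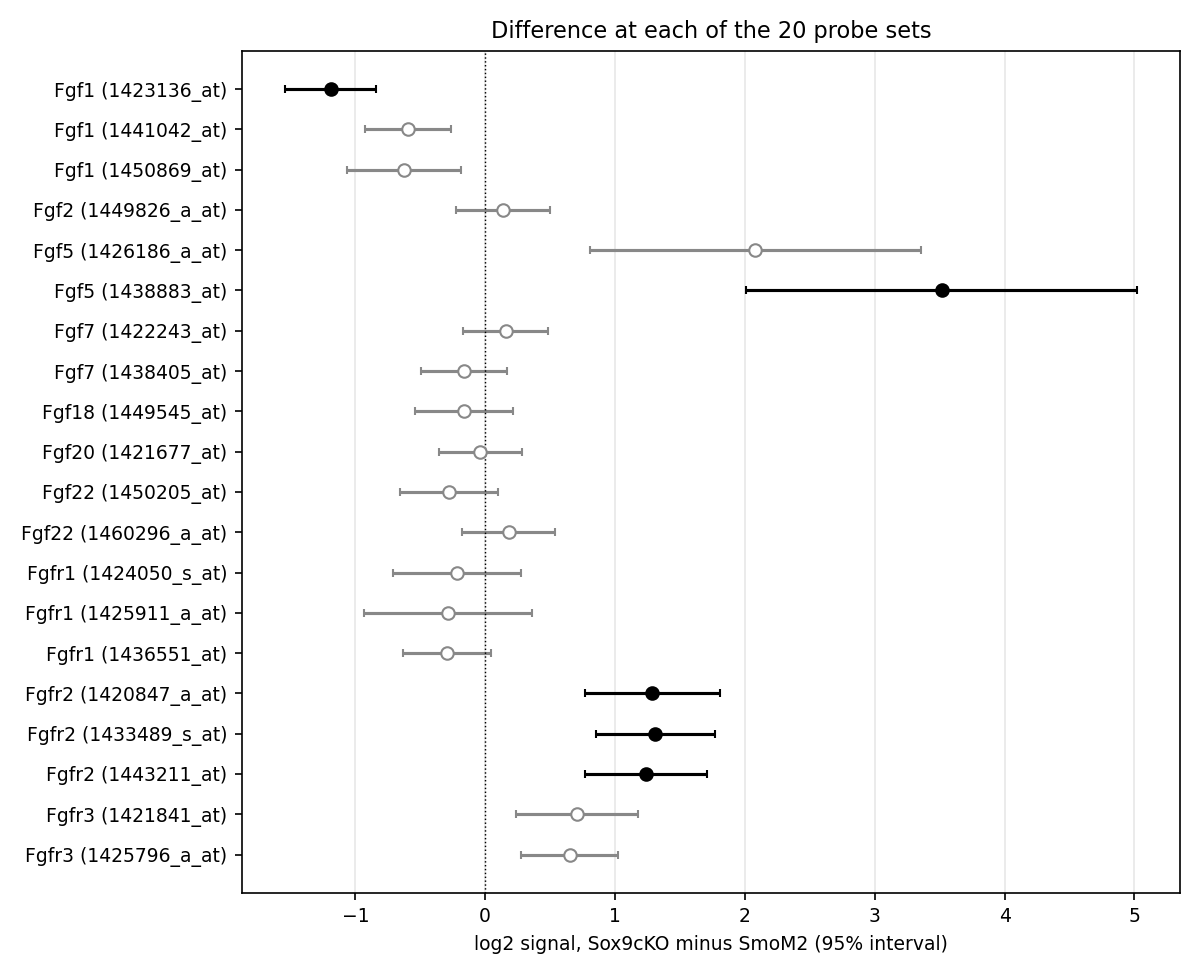
Difference in log2 signal, Sox9cKO minus SmoM2 (horizontal axis), at each of the 20 probe sets of the 10 genes, with its 95% interval from limma. Filled black points passed an adjusted p under 0.05 over all 45037 probe sets. Fgfr2 shows the same size at its 3 probe sets, from 1.24 to 1.31, whereas Fgf5 and Fgf1 pass at 1 probe set each.

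The remaining 5 ligands were dim or near the middle of the arrays and none passed by limma, nor was any at an unadjusted p under 0.05 (the lowest was 0.115). Fgf7, the keratinocyte growth factor, read 4.78 and 4.69 in the Sox9cKO arrays, against 4.61 and 4.54 in the SmoM2 arrays (log2 difference 0.16, 95% interval -0.16 to 0.47). Its second probe set pointed the other way (-0.17), and the mean of the 2 probe sets differed by -0.0039. Fgf2, or basic FGF, read 3.95 and 3.69 in Sox9cKO, against 3.67 and 3.69 in SmoM2 (log2 difference 0.14, 95% interval -0.21 to 0.48). For Fgf7 the genotypes did not overlap at either probe set, but the 2 probe sets had opposite directions. For Fgf2 the genotypes overlapped.

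Fgf18, a ligand of the resting follicle, read 3.79 and 4.10 in Sox9cKO, against 4.12 and 4.10 in SmoM2 (log2 difference -0.16, 95% interval -0.52 to 0.20). Fgf20, which is needed for dermal condensates to form under the embryonic hair placode, read 4.21 and 4.22 in Sox9cKO, against 4.26 and 4.25 in SmoM2 (log2 difference -0.04, 95% interval -0.34 to 0.27). Fgf22, a ligand described in the inner root sheath of the mouse, read 5.49 and 5.77 in Sox9cKO, against 5.82 and 6.00 in SmoM2 (log2 difference -0.28, 95% interval -0.64 to 0.09). The second Fgf22 probe set had the opposite sign (0.18). Adjusted p was between 0.428 and 0.930 for these 5 ligands.

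Signal level limits what can be said of these ligands. All probe sets of Fgf2, Fgf7, Fgf18 and Fgf20 lay below the array median on all 4 arrays, as did the 2 dimmer ones of Fgf1, 7 in all. The file holds no detection calls, so a dim signal does not show whether the transcript was present. The signal of Fgf5 in SmoM2 and that of Fgf1 in Sox9cKO also lay below the array median, which limits the precision of their fold differences. At the other end, 5 probe sets lay above the median on all arrays, 1 of Fgf22 and 4 of the receptors.

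Cells outside the basal layer can also carry FGF genes, so their markers were read on the same arrays. Fibroblasts are a main source of Fgf7, and of 7 fibroblast markers measured 6 had a mean signal below the median of all genes, among them Col1a1, Col3a1, Pdgfra and Lum. The bright one was Postn, which made up most of the summed fibroblast signal of 5219.9 and 6929.3 in the Sox9cKO arrays, against 4305.6 and 6457.5 in the SmoM2 arrays. One fibroblast marker, Thy1, rose (log2 difference 1.99), and it is also a marker of T cells. Endothelial markers had summed signals of 113.5 and 127.5 in Sox9cKO, against 118.5 and 125.1 in SmoM2, and all 5 were below the median.

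Of the dermal papilla markers, Sox2 and Prdm1 fell and the other 4 did not pass, with Alpl, Corin, Rspo3 and Crabp1 dim on average. The summed dermal papilla signal was 172.5 and 148.2 in Sox9cKO, against 632.8 and 834.0 in SmoM2. Prdm1 made up most of that sum in the SmoM2 arrays, with log2 signals of 5.95 and 5.57 in Sox9cKO, against 8.78 and 9.30 in SmoM2. The fall in the sum thus came from Prdm1 and Sox2 and was not shared by the list. Suprabasal markers had summed signals of 15276.2 and 21214.1 in Sox9cKO, against 15189.2 and 12542.5 in SmoM2, with 2 of 5 higher (Lor and Flg). The 6 basal markers summed to 28156.1 and 32553.2 in Sox9cKO, against 32399.7 and 39347.4 in SmoM2. None passed by limma, with 4 of 6 at an unadjusted p under 0.05, against 3234 of 18193 over all genes. Those 4 (Itgb4, Col17a1, Itga6 and Krt14) were all lower on both Sox9cKO arrays, and the arrays overlapped for Krt5 and Trp63. The median log2 difference of the 6 was -0.43, against 0.02 for all genes. Of 5 sebocyte markers 2 fell, the lipid droplet genes Cidea (log2 difference -2.29) and Plin2 (-1.18), and the summed signal was 4015.5 and 3924.4 in Sox9cKO, against 4767.7 and 3593.7 in SmoM2. Of 6 Langerhans cell and myeloid markers 1 rose, the antigen-presentation gene H2-Aa (1.87), and the summed signal was 423.8 and 406.9 in Sox9cKO, against 286.7 and 238.4 in SmoM2. Of 6 bulge markers Lhx2 rose (0.79) and Nfatc1 fell (-1.04), and the summed signal was 8644.3 and 6653.3 in Sox9cKO, against 6609.1 and 7331.3 in SmoM2. The T cell markers summed to 214.5 and 249.7 in Sox9cKO, against 121.7 and 112.0 in SmoM2, with Thy1 the 1 of 4 that rose. No melanocyte, Merkel cell or smooth muscle and pericyte marker passed by limma. At an unadjusted p under 0.05 their counts were 1 of 6, 0 of 5 and 1 of 5, against the same 3234 of 18193. The part of these cell types in the FGF signals was not tested.

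Beyond the 10 genes, the other genes of the FGF pathway mostly did not pass the test. Of 65 measured genes in 6 lists, 1 rose and 2 fell, against 2.66% and 3.53% of all genes, and their median log2 difference was 0.02. Those that passed were Gpc6, Sdc3 and Sulf1. Gpc6 and Sdc3 belong to the list of receptors, co-receptors and binding proteins, with 17 genes measured. Sulf1 belongs to the list of heparan sulfate enzymes, with 10 measured. None of the 11 other secreted FGFs passed (median log2 difference 0.11), nor did any of the 4 intracellular FGF homologous factors (median 0.35). At an unadjusted p under 0.05 by limma these counts were 0 of 11 and 2 of 4, against 3234 of 18193 over all genes. The smallest p among these belonged to Fgf23 (log2 difference -0.29, adjusted p = 0.337) and to Fgf13 (0.51, adjusted p = 0.224).

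Gpc6, a glypican, fell most of these. Glypicans are heparan sulfate proteoglycans anchored to the cell surface. Gpc6 read 4.24 and 4.15 in the Sox9cKO arrays, against 6.83 and 7.45 in the SmoM2 arrays (log2 difference -2.95, SE 0.21, adjusted p = 0.000532). The genotypes were well apart, but the Sox9cKO values lay below the array median, near background, so the size of the difference is not exact. Over all probe sets 3 of its 5 probe sets passed. Averaged over its 5 probe sets the log2 difference was -1.64 (adjusted p = 0.00217).

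Sdc3, a syndecan and thus another heparan sulfate proteoglycan, rose. It read 9.12 and 9.07 in Sox9cKO, against 8.11 and 8.21 in SmoM2 (log2 difference 0.94, SE 0.13, adjusted p = 0.00767). Only 1 of its 3 probe sets passed, and the call was lost without SmoM2 replicate 1 (adjusted p = 0.0595) and with the mean of its probe sets (log2 difference 0.45, adjusted p = 0.0756). The other 15 measured genes of this list of receptors, co-receptors and binding proteins did not pass, among them Fgfr4 (0.40, adjusted p = 0.155) and Fgfrl1, a receptor-like protein without a kinase domain, which differed by -0.05 (adjusted p = 0.947).

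Sulf1 encodes an enzyme that trims sulfate groups from heparan sulfate outside the cell, and it fell. It read 3.65 and 4.07 in Sox9cKO, against 4.96 and 4.90 in SmoM2 (log2 difference -1.07, SE 0.17, adjusted p = 0.0131). All 4 values lay below the array median. The call was lost without SmoM2 replicate 1 (adjusted p = 0.0901), without SmoM2 replicate 2 (adjusted p = 0.0825) and with the mean of its probe sets (log2 difference -0.50, adjusted p = 0.101). The other 9 measured heparan sulfate enzymes did not pass.

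Downstream of the receptors no gene passed limma's test. At an unadjusted p under 0.05 there were 3 of 12 signal transducers and 1 of 11 feedback and ETS genes. Over all genes the count was 3234 of 18193. Of 12 measured signal transducers the smallest p belonged to Gab1, a docking protein (log2 difference 0.55, adjusted p = 0.124), and their median was 0.03. Of 11 measured feedback and ETS genes, which MAP kinase signalling commonly induces, the median was -0.02. Spry2, a feedback inhibitor of receptor tyrosine kinases, read 7.43 and 7.15 in Sox9cKO, against 8.05 and 7.86 in SmoM2 (log2 difference -0.66, adjusted p = 0.0592). Spry2 passed with dim genes left out (adjusted p = 0.0480), whereas the mean of its probe sets differed by -0.17 (adjusted p = 0.579). Etv4 and Etv5, transcription factors induced by FGF signals, differed by 0.26 and -0.55 and their arrays overlapped (adjusted p = 0.697 and 0.361). Spry4 read 6.67 and 4.74 in Sox9cKO, against 4.27 and 5.14 in SmoM2, with Sox9cKO replicate 1 well above the other arrays (log2 difference 1.00, 95% interval -0.35 to 2.34, adjusted p = 0.445).

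**Figure D4:**
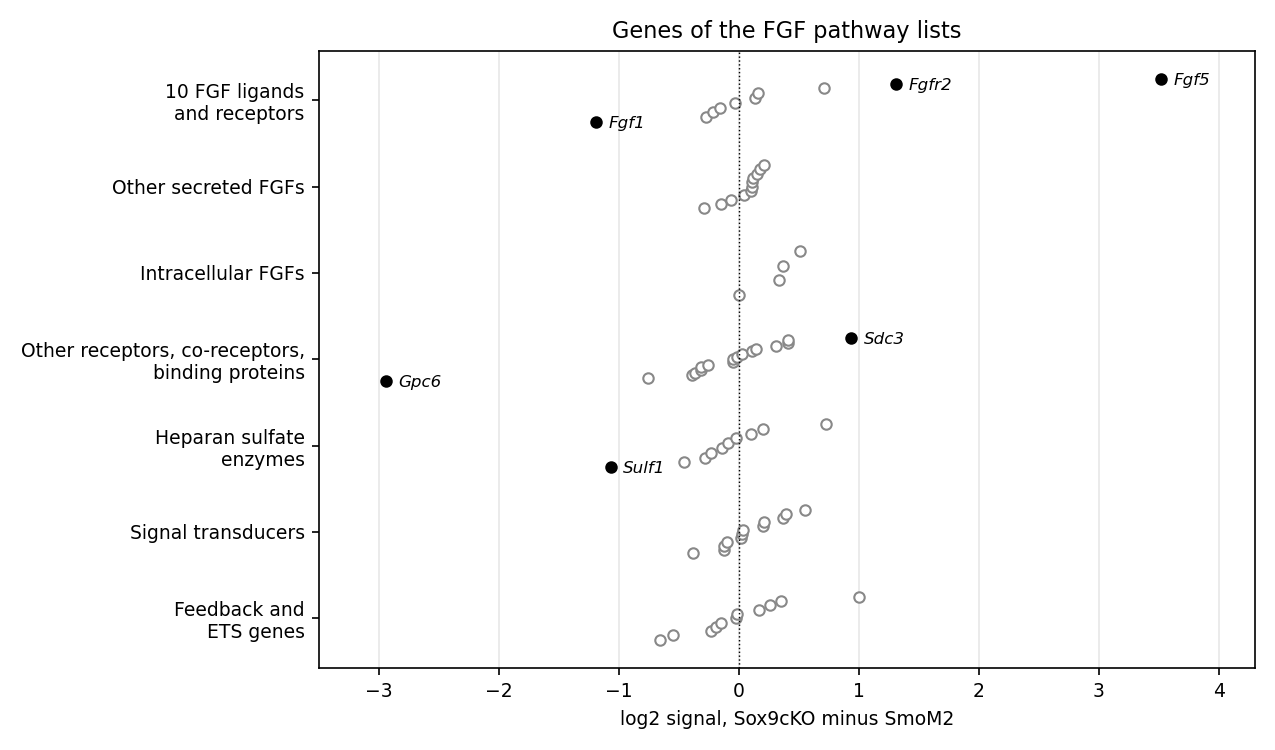
Difference in log2 signal, Sox9cKO minus SmoM2 (horizontal axis), for each measured gene of the 7 FGF pathway lists, 1 point per gene. Filled and named points passed an adjusted p under 0.05 over all genes, and these were Fgf5, Fgfr2 and Sdc3 on the higher side and Fgf1, Gpc6 and Sulf1 on the lower side.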

How the data were processed

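The authors deposited a log2 signal for each probe set on each of the 4 arrays. It was used unchanged, and its log2 scale was read from the range (2.73 to 14.46). How signals were summarised and normalized was not given in the sources used here. Per the submitters' processing notes R 2.14.0 was used, with no role stated. Precision is limited by the number of arrays, which have no read depth.

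Of 45101 probe sets, 64 controls were left out. The platform annotation gave 34945 others 1 symbol, updated through the entrez ID for 34741, and 932 had several symbols and 9160 were unlisted. A gene was read at its probe set of highest mean. Sox9cKO was compared with SmoM2 with limma 3.58.1 (lmFit, then eBayes, two-sided, without covariates) under R 4.3.3, over 18193 genes and again over 45037 probe sets, with Benjamini-Hochberg adjustment and a threshold of 0.05. Adjusted p-values of a gene's brightest probe set are over genes, and those of its other probe sets are over probe sets. Those of Sox9 are over probe sets unless said to be over all genes. The procedure was tested on data simulated from limma's own variance prior with independent noise, which does not show how it fares on these arrays.

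Named are all members and their probe sets, list genes that passed or had the smallest p, and others chosen after their values were seen. Members and lists were chosen with earlier results of these data known. Alternatives left out each array, added the replicate number, or changed the variance prior, normalization, dim filter or choice of probe sets.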

Additional observations from a re-analysis of the deposited data

How the results depend on the processing

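With 2 arrays per genotype and several of the genes near background, the precision is limited, and the calls on Fgf5 and Fgfr2 depended on the setting. In the fits that leave out an array, the lone array is assumed to vary like the other genotype. The count of genes called over the whole table was 1126 and ran from 534 to 900 with an array left out, and the count of probe sets called was 1720 and ran from 1021 to 1142. Of the 10 FGF genes 3 were called, and 1 to 3 with an array left out (Fgf1 alone without SmoM2 replicate 1). Of the other pathway genes 3 were called, and 1 to 5 with an array left out. Fgf5 ran from 2.40 to 4.63 with an array left out, and Fgfr2 from 1.11 to 1.51. Fgf5 stood at 3.52 with an intensity trend and robust prior, where its call was lost, and at 2.80 when its probe sets were averaged. With such means, 1 of the other pathway genes was called, and Fgf7 changed sign (-0.0039). Fgfr1 ran from -0.50 to 0.0674 with an array left out, and its probe set 1425911_a_at from -0.73 to 0.15. Direction reversed in no other alternative run. With dim genes left out Fgf1, Gpc6 and Sulf1 were not tested. Sox9 at probe set 1451538_at ran from -4.42 to -3.37 and kept its call in every alternative run. Of 279 alternative values, 239 kept their direction and side of the threshold, or for counts lay within 1.5 times.

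In the labels the replicates of the 2 genotypes share only a number. On the arrays, the labelling controls were lower in replicate 2 of each genotype. So was the log2 signal at the 3' end of the control gene Actb minus that at its 5' end. It was 0.75 and 0.52 in Sox9cKO, and 0.74 and 0.46 in SmoM2. What these differences reflect was not tested. Same-numbered arrays deviated together weakly (r = 0.13 across probe sets). With the replicate number as a block 1919 genes, 3474 probe sets, 4 FGF genes and 5 other pathway genes were called. Under it Fgfr3 and Spry2 passed (adjusted p = 0.00990 and 0.0137), and no call on the 10 FGF genes was lost.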
